A study of Mus musculus with 12 samples.

Results

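The passage from LSK cells to promyelocytes was examined in whole cell RNA of mouse bone marrow, with the deposited cycle threshold (CT) of each miRNA assay in 1 LSK sample and 1 promyelocyte sample. The CT is the PCR cycle at which the product of a well crosses a fixed signal, so a low CT means abundant template, and at full efficiency each cycle is worth 2-fold. Of 593 assays in the table, 270 could be named, and the 104 of these whose CT was below 30 in LSK, promyelocytes or both are the miRNAs described here. A further 11 assays under this limit had no name, and these include the 3 used for scaling.

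The LSK sample was sorted from C57BL/6 bone marrow stained with lineage antibodies, as Lin- Sca1+ cKit+ cells, a fraction that holds the stem cells together with multipotent progenitors. The promyelocytes came from marrow of the same strain, sorted with antibodies to Gr-1, cKit, CD34 and CD16/32 and with lineage antibodies that included B220, CD3 and Sca1. The labels name no altered allele and no agent for either group, and the age and sex of the mice and the number pooled are not given in the sources used here. Each sample was reverse transcribed from 100 ng of RNA and read on TaqMan rodent cards A and B, 1 well per assay, and an undetermined well is listed at 40. The study holds 12 samples in all, 4 stages in each of whole cell, cytoplasmic and nuclear RNA, with 1 sample per stage and fraction. No replicate error or test between stages can therefore be given, a member is called where it passed 2-fold, and fewer cells of a type and less RNA per cell cannot be told apart in these bulk samples.

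miRNAs are short RNAs cut from hairpin precursors, either arm of which can be loaded into the silencing complex, and they repress mRNAs that pair with bases 2 to 8 of the miRNA, the seed. miRNAs with the same seed form a family with overlapping targets, and neighbouring hairpins are often cut from 1 primary transcript. In the marrow, miR-125 and miR-126 are known from stem and progenitor cells, miR-223 and miR-142 from myeloid cells, miR-150 from lymphocytes, and the transcript from miR-17 to miR-92a from proliferating progenitors.

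In the table of RefSeq sequences used (GRCm38.p6), 85 of the 104 miRNAs were matched to a mature sequence by name. These 85 have 60 different seeds, of which 13 were shared by at least 2 of them, and the 19 without a match are in no seed count, miR-301b, miR-30b and miR-30d among them. The sequences below are written 5' to 3' with the seed in capitals, and they are those of the miRNAs on which the results turn. The first are miRNAs linked with 1 of the stages, the next are families whose members moved apart or together, and the last are the opposite arms of the miR-106b hairpin.
miR-223: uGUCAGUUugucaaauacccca
miR-142-3p: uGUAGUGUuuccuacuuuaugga
miR-126-3p: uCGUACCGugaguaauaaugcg
miR-196b: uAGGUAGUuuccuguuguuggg
miR-125a-5p: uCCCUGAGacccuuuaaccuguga
miR-125b-5p: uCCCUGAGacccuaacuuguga
miR-221: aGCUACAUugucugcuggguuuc
miR-222: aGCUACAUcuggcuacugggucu
miR-130a: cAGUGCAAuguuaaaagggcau
miR-130b: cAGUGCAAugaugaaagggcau
miR-301a: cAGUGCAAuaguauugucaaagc
miR-17: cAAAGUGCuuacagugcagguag
miR-20a: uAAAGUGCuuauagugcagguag
miR-93: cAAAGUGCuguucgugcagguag
miR-106b: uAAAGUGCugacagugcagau
miR-106b*: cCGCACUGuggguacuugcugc

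Log2 changes are CT in LSK minus CT in promyelocytes, less 0.248 cycles, by which the final 3 assays of card B shifted on average, and positive values are higher in promyelocytes. On this scale 35 of the 104 miRNAs were at least 2-fold higher in promyelocytes (33.7%, beside 30.4% of all 115 assays under the limit) and 18 were at least 2-fold lower (17.3%, beside 16.5%). The other 51 changed by less. The median change of the 104 was 0.43, with quartiles of -0.42 and 1.33, and 69 miRNAs lay above 0. A change of 4-fold or more was seen for 10 that rose and 11 that fell. The 3 scaling assays changed by 0.94, -0.27 and 0.07 cycles, an SD of 0.62 across the assays, and 37 of the 104 miRNAs lay within 0.5 of the 2-fold limit. With each of 6 other constants, 19 of the 35 rises and 14 of the 18 falls were called each time. Some of these were under the CT limit only in the sample where they were high, so their direction followed from the limit. That holds for 14 of the 35 rises and 7 of the 18 falls. The constant from the first scaling assay alone turned the median to -0.26 and gave 19 rises and 29 falls.

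**Figure D1:**
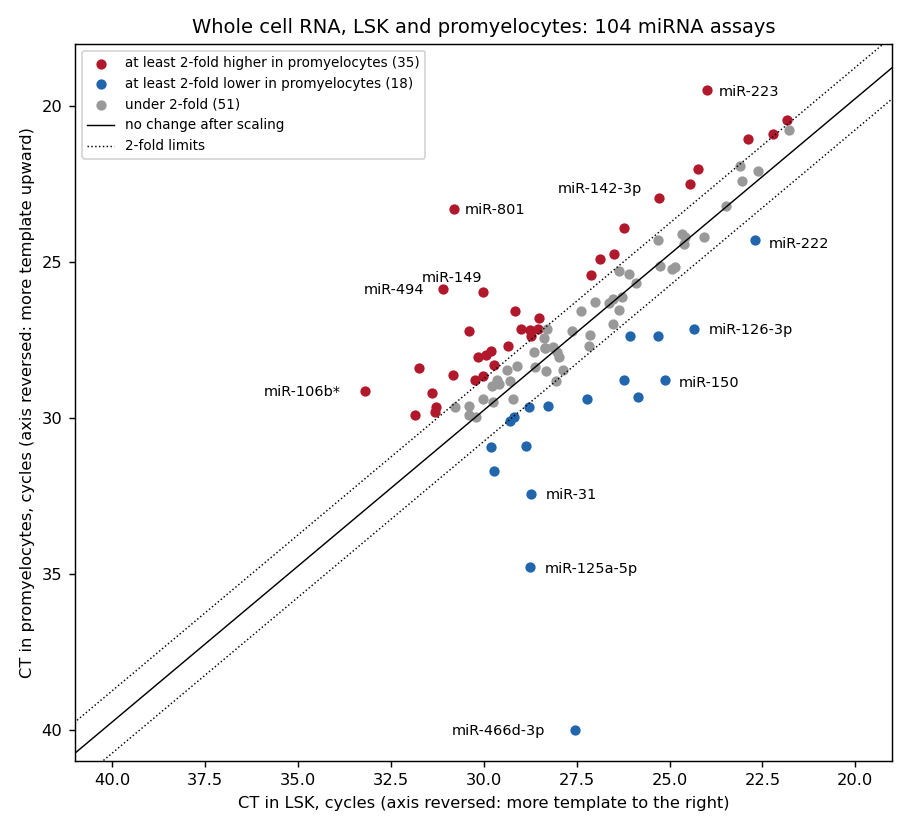
CT of the 104 miRNA assays in LSK (horizontal) and promyelocytes (vertical), in cycles on reversed axes, 1 sample each. The solid line marks no change after the constant of 0.248 cycles and the dotted lines 2-fold; 35 points lie above the upper dotted line and 18 below the lower one, with miR-466d-3p listed at 40 in promyelocytes.

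By CT, 78 of the 104 miRNAs were under 30 in both samples, 7 only in LSK and 19 only in promyelocytes. For those under the limit in 1 sample only, the sign of the unscaled change was set by the limit. Just inside the limit were miR-872* (30.2 in LSK and 29.97 in promyelocytes), miR-103 (30.4 and 29.9) and miR-467a (31.8 and 29.9). Just outside it were miR-124 (40 and 30.01), miR-532-3p (30.04 and 31.4) and miR-696 (40 and 30.1), so that a pair of assays undetermined in LSK missed the limit by little.

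The stem and progenitor linked miRNAs were lower in promyelocytes in 7 of 8 members, with a median change of -2.54 against 0.43 for all 104, of which 17.3% fell. miR-125a-5p, miR-125b-5p and miR-130a were under the CT limit only in LSK, so their direction followed from the limit. Of the 5 members under it in both samples 4 fell. miR-125a-5p, which represses apoptotic factors in stem cells, was read at a CT of 28.8 in LSK against 34.8 in promyelocytes, a 77.7-fold lower level. miR-196b, encoded among the Hoxa genes, went from 25.8 to 29.3, or 13.3-fold lower. Both were under a CT of 30 in LSK, and miR-125a-5p was close to 35 in promyelocytes.

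The arms of the miR-126 hairpin, at chr2:26591357-26591429 (+ strand), fell together. miR-126-3p was read at a CT of 24.3 in LSK against 27.1 in promyelocytes and was 8.22-fold lower, and miR-126-5p had 26.2 and 28.8 and was 6.88-fold lower. By CT, miR-126-3p was 13th of the 104 in LSK and 41st in promyelocytes. Of the other members, miR-125b-5p (28.9 and 30.9) fell by 2.29 on the log2 scale, miR-155 (26.1 and 27.4) fell by 1.54 and miR-130a (29.3 and 30.1) fell by 1.05. miR-155 is the inflammation and lymphocyte linked product of the Bic transcript. let-7e was the exception at 25.9 and 25.7, a change of 0.01. The fall of miR-130a was under 2-fold without a constant, at -0.80.

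The hairpins of let-7e and miR-125a lie next to each other at chr17:17830352-17830879 (+ strand), and their changes differed by 6.29 on the log2 scale. miR-99b, which is encoded beside them, stayed above the CT limit and is no member, with 31.5 in LSK and 36.5 in promyelocytes. The let-7e assay thus stood apart from those of its neighbours, and cross-detection of other let-7 miRNAs, whose sequences are close to its own, was not tested.

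Among the myeloid linked miRNAs, 3 of 5 rose, 1 fell and 1 changed by less than 2-fold, with a median of 1.72, beside 33.7% of all 104 that rose and 17.3% that fell. miR-223, which restrains the proliferation and activation of granulocytes, is encoded at chrX:96242817-96242926 (+ strand). Its CT was 23.98 in LSK and 19.5 in promyelocytes, a 19.04-fold higher level. It went from 10th to 1st of the 104 by CT. miR-142-3p, found in nearly all blood lineages, had 25.3 and 22.9 and was 4.26-fold higher. miR-27a, with 29.9 and 27.97, was 3.28-fold higher.

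miR-146a, a feedback inhibitor of Toll-like receptor signalling, ran the other way with 25.3 in LSK and 27.4 in promyelocytes, or 4.86-fold lower. miR-21, raised in many proliferating cells, had 28.3 and 27.2 and stayed under the limit at 0.89. Without a constant miR-21 was above 2-fold, at 1.14.

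Markers of other cells that could be in the sorted fractions were read beside these. The lymphoid marker miR-150, which represses Myb, was read at a CT of 25.1 in LSK against 28.8 in promyelocytes and was 14.9-fold lower. miR-181a, the other lymphoid marker with a name, had 29.8 and 29.0 and a change of 0.55. The summed template of these markers, in units of that at a CT of 30, was 30.4 in LSK and 4.37 in promyelocytes, whereas that of the 6 named myeloid miRNAs was 122 and 1621. These sums use the CT without the constant and do not stand for whole lists. The lymphoid sum in LSK was mostly miR-150, and miR-181a did not fall. The myeloid sum in promyelocytes was mostly miR-223, and miR-146a fell. The lineage antibodies of the LSK sort included B220 and CD3, which mark lymphoid cells, and a part of such cells in the fall of miR-150 was not tested.

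Of 9 named epithelial and stromal markers, miR-143 and miR-145 were listed at 40 in both samples and 2 were under a CT of 30. miR-203, known from skin, had 27.2 in LSK and 29.4 in promyelocytes, or 5.33-fold lower, and miR-192 had 31.3 and 29.7, or 2.59-fold higher. miR-192 was under the CT limit only in promyelocytes, so its direction followed from the limit. The summed template of the 9 was 7.93 in LSK, mostly from miR-203, and 3.61 in promyelocytes. The erythroid marker miR-486 was listed at 40 in both samples. Of the markers set for the labelled stages, miR-126-3p, miR-126-5p, miR-155 and miR-196b, all under the limit in both samples, were lower in promyelocytes, and miR-223 and miR-142-3p were higher there, while miR-125a-5p, miR-125b-5p and miR-130a, also lower, were under the limit only in LSK. Beside these markers, miR-146a of the myeloid linked list fell, and let-7e and miR-21 stayed under 2-fold. miR-142-5p missed the limit, with 31.2 in LSK and 30.3 in promyelocytes.

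**Figure D2:**
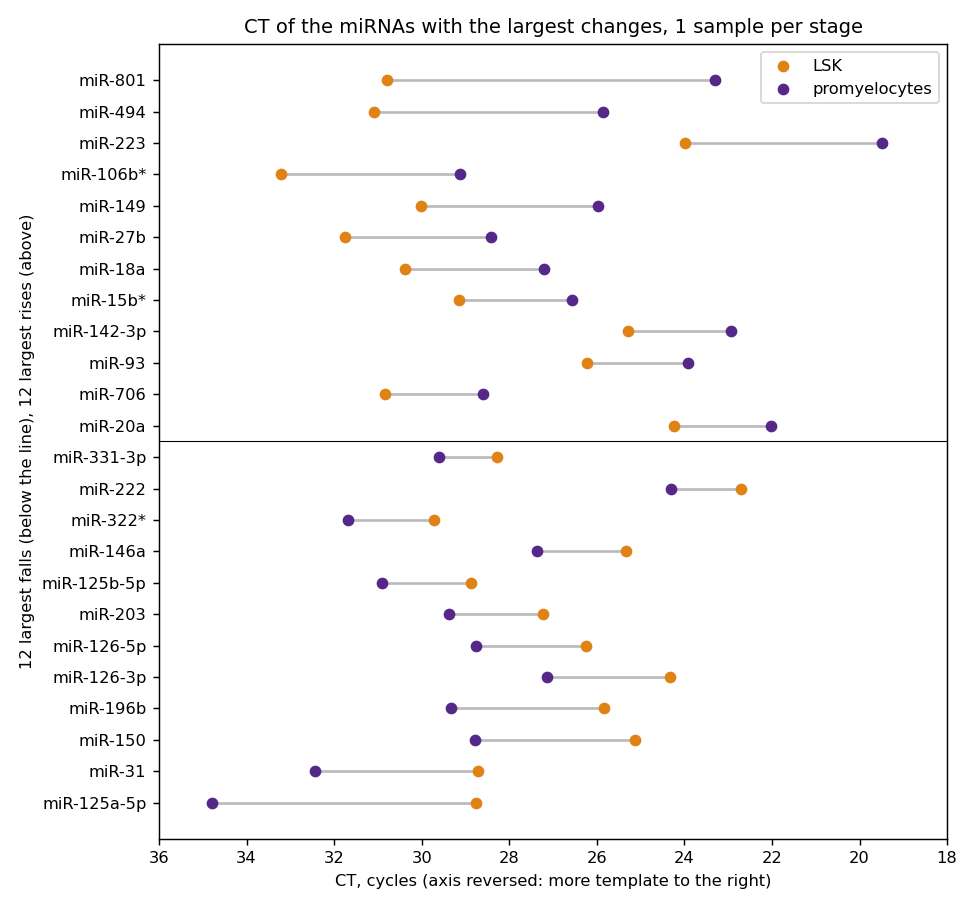
CT in LSK (orange) and promyelocytes (purple), in cycles on a reversed axis, of the 12 miRNAs with the largest falls (below the line) and the 12 with the largest rises (above it) among those under 35 in both samples, 1 sample per stage. miR-801 and miR-494 moved most upward, from over 30 in LSK to 23.3 and 25.9, and miR-125a-5p most downward, to 34.8.

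The rises of miR-801 and miR-494 were larger than that of miR-223. miR-801 was read at a CT of 30.8 in LSK against 23.3 in promyelocytes, a 153-fold higher level. It was under the CT limit only in promyelocytes, so its direction followed from the limit. The entry has been removed from miRBase, the miRNA database, as have miR-720, miR-805 and miR-699. Of these 4 entries, miR-720 (22.9 and 21.1) and miR-805 (26.5 and 24.7) rose by 1.59 and 1.51 on the log2 scale, while miR-699 (26.5 and 26.98) changed by -0.71. Without the 4, 32 rises and 18 falls remained among 100 miRNAs.

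miR-494, from the imprinted Dlk1-Dio3 region, was read at a CT of 31.1 in LSK against 25.9 in promyelocytes and was 31.9-fold higher. miR-149, with 30.01 and 25.97, was 13.8-fold higher. miR-706, with 30.8 and 28.6, was 3.94-fold higher. Each of these was above 30 in LSK, so the direction followed from the CT limit. This held for all 14 of the 35 rises with 1 of their CT values at or above 30.

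Further falls were those of miR-31, miR-331-3p and miR-466d-3p. miR-31, a regulator of migration and differentiation, was read at a CT of 28.7 in LSK against 32.4 in promyelocytes and was 15.6-fold lower. It was under the CT limit only in LSK, so its direction followed from the limit. miR-331-3p, with 28.3 and 29.6, was 2.98-fold lower. miR-466d-3p was read at 27.5 in LSK and was undetermined in promyelocytes, so its change of -12.70 is a bound set by the value of 40 and not a measured size. It is 1 of 3 members from the large miRNA cluster in an intron of Sfmbt2, where miR-467a (31.8 and 29.9) rose by 1.70 and miR-467a* (31.4 and 29.2) by 1.96. The first was under the CT limit only in LSK and the others only in promyelocytes, so these directions followed from the limit.

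Of the 6 miRNAs from miR-17 to miR-92a, encoded by a Myc-driven cluster that promotes proliferation, 5 rose, with a median of 1.43, beside 33.7% of all 104. miR-19b and miR-92a each have 2 hairpin genes, so their assays cannot be assigned to this cluster alone. miR-18a (30.4 in LSK and 27.2 in promyelocytes) rose most, 7.64-fold, and was under the CT limit only in promyelocytes, so that its direction followed from the limit. miR-20a (24.2 and 22.02) rose 3.92-fold, miR-19a (24.5 and 22.5) 3.27-fold, miR-19b (21.8 and 20.4) 2.21-fold and miR-17 (22.2 and 20.9) 2.09-fold. miR-92a, with 23.5 and 23.2, changed by 0.03. The rises of miR-17 and miR-19b rest on the constant: with the mean CT of the members they were under 2-fold at 0.86 and 0.94, and with the median of each card at 0.83 and 0.92. The hairpins from miR-17 to miR-20a lie within chr14:115043671-115044263 (+ strand), and the changes of their main arms ran from 1.06 to 2.93.

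The related miR-106b-25 cluster, in an intron of Mcm7 at chr5:138165321-138165818 (- strand), rose in 2 of 3 main members, beside 33.7% of all 104. miR-93 was read at a CT of 26.2 in LSK against 23.9 in promyelocytes, or 4.19-fold higher, and miR-25 had 29.4 and 27.7, or 2.66-fold higher. miR-106b changed by 0.09, with 26.6 and 26.3. From the X-linked paralogue, miR-106a (23.1 and 21.9) changed by 0.94 and miR-20b (27.6 and 27.2) by 0.17, both under 2-fold. The 6 members with the seed AAAGUGC from these clusters, among them miR-17, miR-20a, miR-93 and miR-106b printed above, ranged from 0.09 to 2.07 with 3 rises, beside 33.7% of all 104, and those with the seed GUGCAAA, miR-19a and miR-19b, both rose.

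Of the let-7 family, which represses Lin28, Myc and Ras genes and is linked with differentiation, 3 of 6 members rose and none fell, with a median of 0.98, beside 33.7% of all 104 that rose and a median of 0.43. let-7i (27.1 in LSK and 25.4 in promyelocytes) rose by 1.46 on the log2 scale, let-7a (30.2 and 28.8) by 1.21 and let-7d (28.7 and 27.4) by 1.11. let-7g (26.4 and 25.3) changed by 0.85, let-7c (28.6 and 27.9) by 0.53 and let-7e by 0.01. let-7a was under the CT limit only in promyelocytes, so its direction followed from the limit, and of the 5 members under it in both samples 2 rose. The 3 rises were all within 0.5 of the 2-fold limit and rest on the constant. With the median of each card let-7a and let-7d were under 2-fold, at 0.98 and 0.88. With the first scaling assay alone let-7i, let-7a and let-7d were under it, at 0.77, 0.52 and 0.42.

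In other families most members stayed within 2-fold. All 5 miR-30 members, from miR-30d (28.04 and 27.9) to miR-30c (24.9 and 25.2), lay between -0.54 and -0.08. miR-26a and miR-26b changed by -0.51 and -0.10, miR-29a and miR-29c by -0.05 and -0.76, and miR-101a and miR-101b by 0.56 each. In the miR-15/16 family, which represses Bcl2 and cyclins, miR-195 (28.8 and 27.2) rose by 1.32, whereas miR-15b changed by 0.48, miR-16 by 0.42 and miR-322 by -0.44. miR-139-5p, with 28.4 and 27.4, changed by 0.70. Of the miR-23/24/27 clusters miR-24 changed by -0.38, while miR-27a and miR-27b rose. In centred cytoplasmic RNA 5 of these passed 2-fold lower: miR-26a (-1.39), miR-26b (-1.62), miR-29c (-1.35), miR-30a (-1.05) and miR-322 (-1.28).

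**Figure D3:**
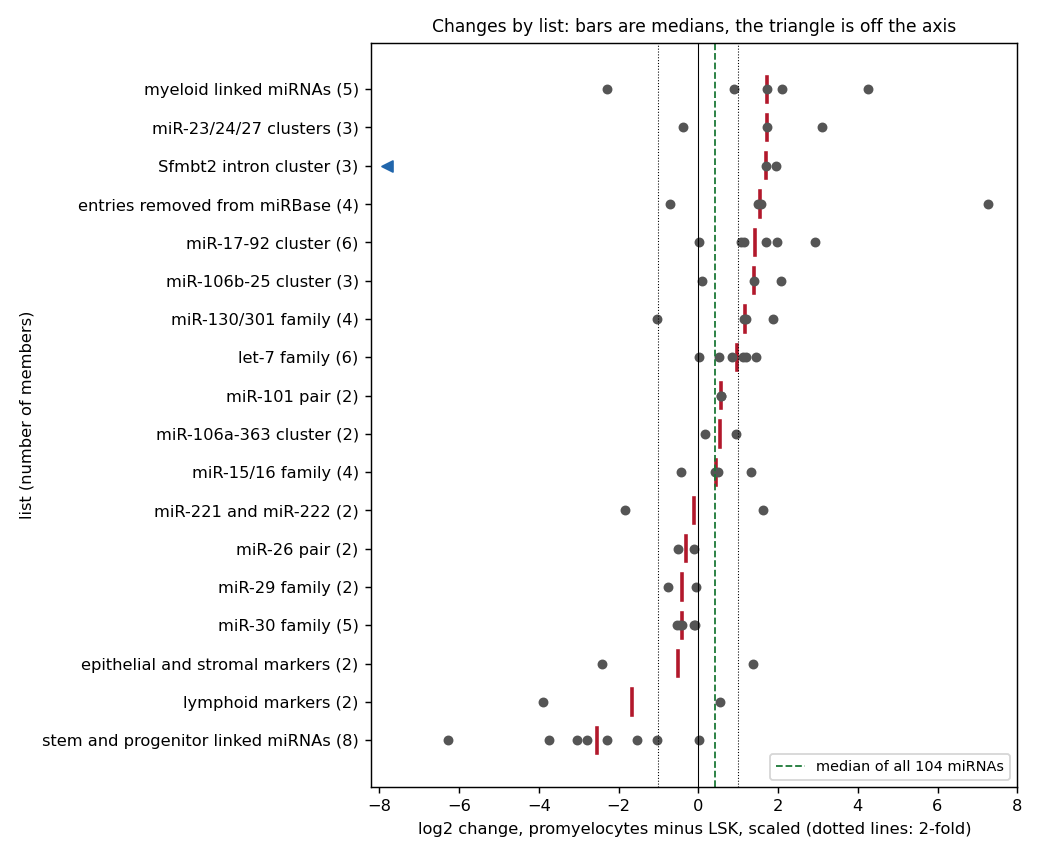
Scaled log2 change in whole cell RNA of each member of the lists with at least 2 members (dots), with the median of each list (red bars), the median of all 104 miRNAs (dashed line, 0.43) and 2-fold limits (dotted lines), 1 sample per stage. The stem and progenitor list lies lowest, with a median of -2.54 and 7 of 8 members below -1; the triangle is miR-466d-3p, whose -12.70 is a bound.

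Some miRNAs with the same seed moved in opposite directions. miR-221 and miR-222, which target Kit and the cell cycle inhibitor p27 and share the seed GCUACAU, lie at chrX:19146294-19146971 (- strand). miR-221 was read at a CT of 29.0 in LSK against 27.1 in promyelocytes and was 3.06-fold higher, whereas miR-222 had 22.7 and 24.3 and was 3.58-fold lower. Their changes differed by 3.45 on the log2 scale in whole cell RNA and by 2.10 in the same direction in cytoplasmic RNA. The centred cytoplasmic change of miR-221 was under 2-fold, at 0.70, beside -1.40 for miR-222. Without centring both were lower in promyelocytes there, at -0.52 and -2.62. With the first scaling assay alone the whole cell rise of miR-221 was under 2-fold, at 0.92. Aligned at the 5' end, the printed sequences share 11 of 23 bases.

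Values on both sides of 0 were also read for the seed AGUGCAA. miR-130a fell by 1.05 while miR-130b (29.7 in LSK and 28.3 in promyelocytes) rose by 1.19 and miR-301a (30.03 and 28.6) by 1.14; miR-301b (30.1 and 28.03) of the same family rose by 1.87. miR-130a was under the CT limit only in LSK and miR-301a and miR-301b only in promyelocytes, so the direction of these followed from the limit, and with the median CT difference of each card as the constant miR-130b and miR-301a were under 2-fold, at 0.96 and 0.91. miR-130a and miR-130b share 20 of 22 bases, and the change of miR-130a minus that of miR-130b was -2.24 in whole cell RNA and -2.47 in cytoplasmic RNA. The 3 sequences printed come from different chromosomes.

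miR-125a-5p and miR-125b-5p, with the seed CCCUGAG and 15 of 22 bases in common, both fell, with a difference between their log2 changes of -3.99 in whole cell and -4.27 in cytoplasmic RNA; each was under the CT limit only in LSK. miR-27a and miR-27b, identical at 20 of 21 bases, both rose, miR-27b (31.7 in LSK and 28.4 in promyelocytes) by 8.52-fold. miR-27b was under the CT limit only in promyelocytes, so its direction followed from the limit, and the change of miR-27a minus that of miR-27b was -1.38 in whole cell and -0.64 in cytoplasmic RNA. Whether assays of such close sequences detect each other's target was not tested.

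Both arms were under the limit for 13 hairpins. The changes of the arms were within 2-fold of each other in 6 and further apart in 7, with a median difference of 1.03 on the log2 scale. In 11 of the 13 the arms were read on different cards. The median change of all members was 0.42 for card A and 0.56 for those of card B.

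The widest gap was that of miR-106b, whose arms are printed above. The main arm stayed at 26.6 and 26.3, while miR-106b* went from 33.2 in LSK to 29.1 in promyelocytes, or 14.3-fold higher. miR-15b* (29.2 and 26.6) was 5.09-fold higher beside 0.48 on the log2 scale for miR-15b. miR-106b* was under the CT limit only in promyelocytes, so its direction followed from the limit. In centred cytoplasmic RNA the gaps were smaller, at 1.19 for miR-106b and 0.80 for miR-15b.

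The main arm moved more for miR-93, which rose by 2.07 on the log2 scale beside 0.08 for miR-93* (26.5 and 26.2), and for miR-20a beside miR-20a* (30.02 and 29.4, a change of 0.38). miR-130b* (28.6 and 28.4) changed by 0.01 beside the rise of miR-130b. miR-322* (29.7 and 31.7) was 4.65-fold lower while miR-322 changed by -0.44. miR-322* was under the CT limit only in LSK, so its direction followed from the limit. Over all 17 members with a starred name, 4 rose and 3 fell, with a median of 0.33, beside 33.7% and 17.3% of all 104. Of the 4, miR-467a* is an exception to the name and had a lower CT than miR-467a in both samples.

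**Figure D4:**
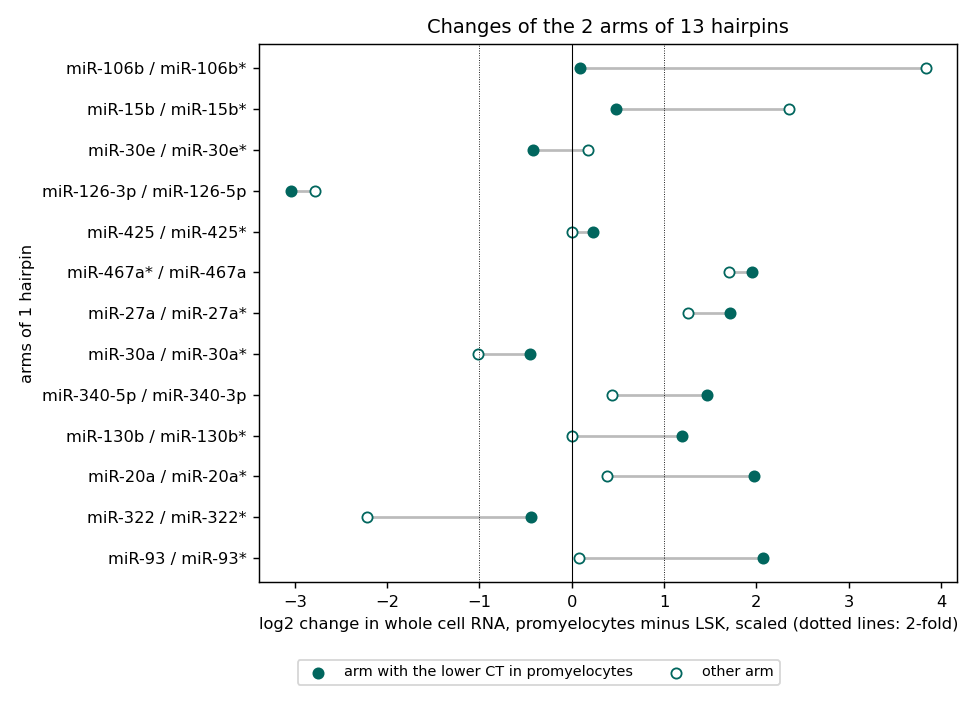
Scaled log2 change from LSK to promyelocytes of both arms of 13 hairpins in whole cell RNA, the arm with the lower CT in promyelocytes filled and the other open, 1 sample per stage, with 2-fold limits dotted. The arms of miR-126 and miR-467a lie close together, and those of miR-106b are 3.75 apart.

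Cytoplasmic RNA of the same stages gave a further reading of the 104 miRNAs. Its CT values served to name 83 of them but not to set the CT limit. Its unscaled changes were below 0 for 91 of the 104, with a median of -1.22, so directions there depend on the centring and were read relative to this median. Centred in this way, 17 of the 18 falls were also at least 2-fold lower in cytoplasmic RNA (beside 21.7% of all 115 assays), and 14 of the 35 rises were also at least 2-fold higher (beside 15.7%). Of the rises, 28 lay above 0 and none was 2-fold lower. These shares depend on the cytoplasmic constant: with the same 3 scaling assays as in whole cell RNA, a constant of -1.85 cycles, 13 of the 18 falls and 25 of the 35 rises were called the same way. With both RNAs centred on their medians, the median of the 18 falls was -2.71 in whole cell and -2.29 in cytoplasmic RNA, and that of the 35 rises 1.27 and 0.78.

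Among the 71 miRNAs under a CT of 30 in all 4 samples, the changes in whole cell and cytoplasmic RNA had a Pearson's r of 0.86 and a Spearman's rho of 0.74 across miRNAs, which are not replicates. With each RNA centred on its median over these 71, the changes differed with an SD of 0.69 between the RNAs, by less than 2-fold for 55 of the 71 and by 1.97 at most. That spread is of the size of many of the smaller rises.

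miR-125a-5p repeated its fall in cytoplasmic RNA, with a CT of 27.2 in LSK and 34.9 in promyelocytes and a centred change of -6.49. miR-466d-3p was again undetermined in promyelocytes, with 26.5 in cytoplasmic LSK RNA. miR-150 (24.1 and 29.6), miR-126-3p (23.1 and 27.5) and miR-196b (25.1 and 29.4) changed by -4.24, -3.15 and -3.02. These miRNAs were lower in promyelocytes also without centring, but so were 91 of the 104 miRNAs, so this does not set them apart. Without centring, 10 of the 35 rises lay above 0 in cytoplasmic RNA.

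Of the rises, miR-223 had a cytoplasmic CT of 21.8 in LSK and 20.3 in promyelocytes, a centred change of 2.66. miR-149 (28.4 and 26.3) and miR-18a (29.2 and 27.7) changed by 3.32 and 2.70. miR-801 (27.2 and 25.97), miR-494 (30.4 and 29.99) and miR-106b* (28.4 and 28.3) gave 2.42, 1.62 and 1.34, each less than the whole cell change by over 2 on the log2 scale. For miR-106b* it was the LSK samples that lay apart, at 33.2 in whole cell and 28.4 in cytoplasmic RNA.

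miR-674* passed 2-fold in opposite directions, with a change of -1.36 in whole cell RNA (29.8 and 30.9) and 1.24 in centred cytoplasmic RNA (29.7 and 29.7). Its unscaled cytoplasmic change was 0.01, so the 1.24 comes from the centring. In whole cell RNA it was under the CT limit only in LSK, which set its direction. Of the myeloid linked list, 1 of 5 members was at least 2-fold higher in centred cytoplasmic RNA and 1 lower, with a median of 0.64. Of all 115 assays 15.7% were higher there and 21.7% lower. miR-142-3p (23.6 and 24.1) and miR-27a (27.99 and 28.6) were under 2-fold there, with centred changes of 0.67 and 0.64. The let-7 and the miR-106b-25 lists were at least 2-fold higher in cytoplasmic RNA in none of their members (beside 15.7% of all 115 assays), with centred medians of -0.59 and 0.15. In the list from miR-17 to miR-92a 2 of 6 were (beside the same 15.7%), with a median of 0.64. In the stem and progenitor list 7 of 8 were at least 2-fold lower (beside 21.7%), with a median of -2.62.

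**Figure D5:**
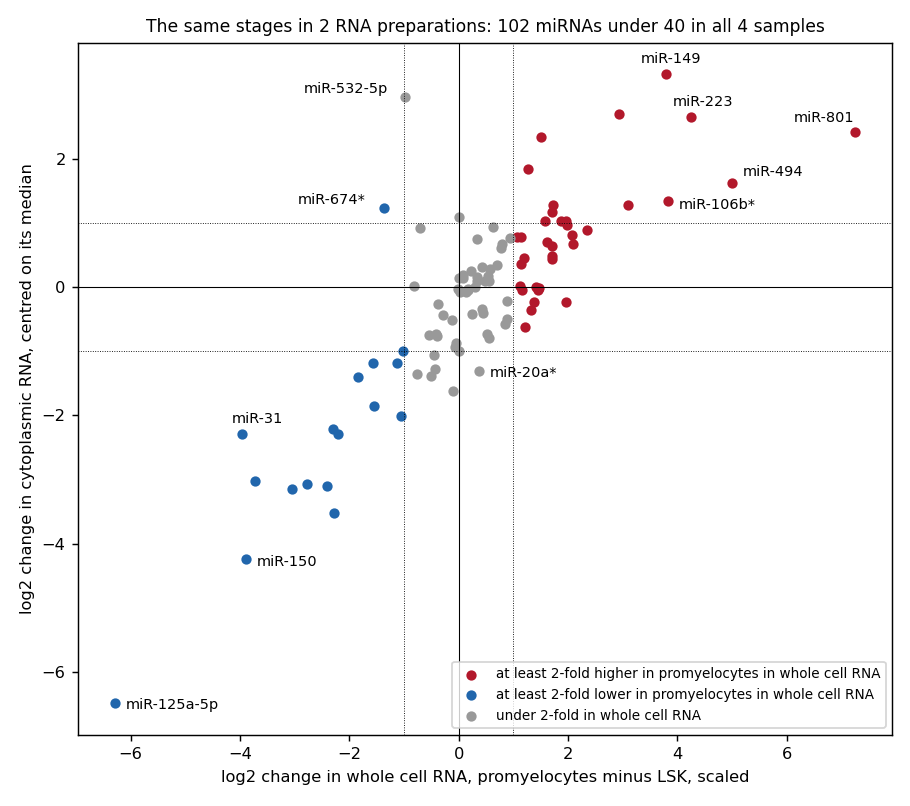
Log2 change from LSK to promyelocytes in whole cell RNA (horizontal, scaled) and cytoplasmic RNA (vertical, centred on its median) for the 102 miRNAs under 40 in all 4 samples, coloured by the whole cell call, with 2-fold limits dotted. Falls in whole cell RNA lie below -1 on the vertical axis with the exception of miR-674*, while many rises lie between 0 and 1.

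In nuclear RNA, 97 of the 104 were under 40 in both stages, with a median change of 0.03. Of the rises measured there, 30 of 33 lay above this median, and of the falls 13 of 15 lay below it. By construction the median has as many of the 97 above as below. Many nuclear CT values were above 30, as for miR-31 (31.7 and 35.3). The paper proposes that low nuclear signal is mostly cytoplasmic miRNA contaminating that fraction, so this need not be an independent reading. Nuclear miR-223 was read at a CT of 26.4 in LSK against 23.7 in promyelocytes. Nuclear miR-125a-5p had 32.1 in LSK and was undetermined in promyelocytes.

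The later whole cell samples showed whether a change went on, scaled by the same 3 assays. Changes before and after the promyelocyte stage share the 1 promyelocyte sample, so an extreme reading there moves both in opposite directions. Of the 35 rises, 11 were a further 2-fold higher in myelocytes than in promyelocytes (beside 29.6% of all 115 assays), 4 were 2-fold lower again (beside 14.8%) and 20 stayed within 2-fold. miR-223 reached a CT of 17.3 in myelocytes and 16.4 in granulocytes. miR-142-3p reached 21.1 and 20.6. miR-801 and miR-494, at 28.8 and 28.3 in myelocytes, were among the 4 that came down again.

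The members from miR-17 to miR-92a had their lowest CT in promyelocytes, with miR-18a at 27.99 in myelocytes and 28.2 in granulocytes after 27.2, and miR-20a at 22.7 and 23.2 after 22.02. Of these, miR-17, miR-18a, miR-19a, miR-20a and miR-92a were at least 2-fold lower in granulocytes than in promyelocytes, with log2 changes from -1.11 to -1.60 (beside 27% of all 115 assays that were lower), and miR-19b changed by -0.64. These values include a constant of 0.428 cycles. Without it miR-20a was 2-fold lower, at -1.17, and the others lay between -0.21 and -0.95.

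Of the 18 falls, 4 went on by a further 2-fold in myelocytes, 9 stayed within 2-fold and 5 were 2-fold higher again, beside 14.8% of all 115 assays lower and 29.6% higher. miR-196b went on to 31.3 in myelocytes and 33.2 in granulocytes, and miR-155 to 28.9 and 30.1. In myelocytes the return was largest for miR-150, at 25.6 in myelocytes and 25.8 in granulocytes after 28.8 in promyelocytes, and miR-146a, at 24.4 and 25.9 after 27.4, came back likewise. miR-31 was 29.5 in myelocytes but 34.6 in granulocytes. miR-466d-3p was undetermined in myelocytes too and had a CT of 25.6 in granulocytes.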

How the data were processed

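The authors deposited raw CT values, not normalized, for 12 samples, read on an ABI 7900HT instrument; per the study's methods SDS 2.3 and RQ Manager gave the CT. The table numbers its 593 assays. Names came from a unique match of the cytoplasmic and nuclear CT with those printed in Additional file 5 (within 0.0005 cycles, 247 assays) or else of the whole cell differences with Additional file 1 (23 assays). The latter were first put on that file's scale by a fitted line with a slope of 1.71 per cycle, as for logarithms to base 1.5, and had to match within 0.002. The printed values of both files served only to name assays. The 104 miRNAs have 83 and 21 names from these.

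Log2 changes are CT differences minus 0.248 cycles. With 1 sample and 1 well per value no test was made, and calls are of 2-fold. RNA input was 100 ng, and a CT of 30 was taken as the limit of use. The miRNAs, lists and alternatives were chosen with earlier results of these data known. Named are the list members, the 12 largest rises and falls, undetermined or opposed members, and 3 assays on each side of the limit; any other was chosen after its values were seen. Star names were matched to RefSeq arms by hand. The arithmetic of the calls was checked on simulated CT values without noise, which does not show how reliable the calls are. Python 3.11.15, pandas 2.3.3, numpy 2.4.6, scipy 1.17.1 and matplotlib 3.10.9 were used.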

Additional observations from a re-analysis of the deposited data

Results flagged for a closer look

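miR-674* was picked out because its change was -1.36 in whole cell RNA and 1.24 in centred cytoplasmic RNA, past 2-fold in opposite directions. The cytoplasmic CT hardly moved, with an unscaled change of 0.01, so the 1.24 comes from the centring. With 1 sample per stage and fraction the difference between the RNAs was not tested. Its CT lay between 29.7 and 30.9 in the 4 samples, close to the CT limit of 30.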

How the results depend on the processing

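No paired analysis was possible because each stage and fraction has 1 sample and the labels carry no replicate numbers, and no sample could be left out. The main counts are 35 rises and 18 falls, with a median of 0.43. The median was 0.68 without a constant, 0.23 with the mean CT of the members and 0.20 with the median of each card. It was 0.40 at 1.9-fold per cycle, 0.34 over all assays, 0.44 with names from Additional file 5 only and 0.40 without removed entries. At a CT limit of 25 there were 11 rises, 2 falls and a median of 0.79; at 28, 9 falls; at 32, 29 falls and 0.46; at 35, 70 rises, 49 falls and 0.33; and under 30 in both samples, 21, 11 and 0.33. Fold limits of 3 and 4 left 21 and 10 rises, and a limit of 4 left 11 falls. Cytoplasmic RNA gave 7 rises, 64 falls and -1.22 without a constant, and 18 rises and a median of 0 by construction when centred. Of constants from 1 scaling assay, added after seeing the data, the first gave 19 rises, 29 falls and -0.26, and the others medians of 0.94 and 0.60. No called miRNA changed sign under another whole cell constant. In centred cytoplasmic RNA 31 of the 53 calls were kept, and these changed sign: let-7a (-0.62), let-7i (-0.048), miR-192 (-0.23), miR-195 (-0.35), miR-340-5p (-0.0062), miR-467a* (-0.23), miR-652 (-0.040), miR-674* (1.24) and the median of the Sfmbt2 members (-0.23). The cause was not tested. Calls in both RNAs numbered 22 without a cytoplasmic constant and 38 with the last 3 assays of card B.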

Other observations

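Among the miRNAs outside the lists, miR-532-5p was just under 2-fold in whole cell RNA, at -0.98 with a CT of 28.1 in LSK and 28.8 in promyelocytes, and had a centred cytoplasmic change of 2.97 with 31.4 and 29.7. miR-574-3p was undetermined in cytoplasmic LSK RNA and 28.8 in cytoplasmic promyelocyte RNA, beside 29.4 and 28.5 in whole cell RNA. miR-148a (29.8 and 27.9) and miR-690 (26.9 and 24.9) were 3.25-fold and 3.31-fold higher in promyelocytes in whole cell RNA and past 2-fold in centred cytoplasmic RNA too, at 1.18 and 1.29. miR-342-3p (28.8 and 29.7) was 2.19-fold lower in whole cell RNA, but under 2-fold without a constant, at -0.88, and its centred cytoplasmic change was -1.18. These were chosen after their values were seen.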
